A study of Homo sapiens with 6 samples.

Results

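B cell receptor and surface genes were examined in L428, an established Hodgkin lymphoma cell line, after miR-9 was inhibited. The set holds MS4A1, CD79A, CD79B, CD22, FCRLA, BLK, SYK, LYN and BTK, and every probe set (a group of short probes read as 1 value) annotated to exactly 1 of these 9 genes was taken. This gave 26 of the 54675 probe sets on the Affymetrix HG-U133 Plus 2.0 array, for 9 of 19775 named genes. L428 cells were nucleofected with an inhibitor of miR-9 built from locked nucleic acid, or LNA (3 arrays), or with a scrambled LNA (3 arrays), and total RNA was taken 9 h later. All 6 arrays are of the same line in the same culture medium, and each carried an LNA, so the scrambled LNA is the only control. The replicates carry numbers, and nothing states that they came from different cultures; each p-value therefore reflects the spread between these samples, which may be technical. Values are log2 RMA levels, and each difference is miR-9 LNA minus scrambled on that scale. The number of arrays limits the precision.

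A B cell senses antigen through a membrane immunoglobulin held with the signalling chains CD79A and CD79B. Src family kinases, chiefly LYN with BLK, phosphorylate the tails of these chains, SYK docks there, and SYK passes the signal on to BTK and phospholipase C gamma. CD22 is a sialic acid-binding co-receptor that damps the signal after LYN phosphorylates it, MS4A1 encodes the surface protein CD20, and FCRLA encodes an Fc receptor-like protein kept inside B cells. Hodgkin lymphoma cells descend from B cells and are known for having lost much of this programme.

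The microRNA that the inhibitor was made against is shown here with its seed, bases 2 to 8, in capitals. RefSeq (GRCh38.p14) places the same 23-base mature miR-9-5p at 3 loci, chr1:156420392-156420414 (minus strand), chr5:88666902-88666924 (minus strand) and chr15:89368032-89368054 (plus strand). Whether the 9 mRNAs carry sites for this seed was not tested.
hsa-miR-9-5p: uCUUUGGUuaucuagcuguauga

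In L428, LYN stood far up the range of the array, and the other 8 genes lay in its low part. The 3 LYN probe sets had means over the 6 arrays from 8.99 to 9.55, at percentiles 86.3 to 90.5 of all 54613 probe sets that are not controls. The 23 probe sets of the other 8 genes had means from 6.29 to 7.36, at percentiles 1.31 to 61.0. No single array put any of these 23 above 7.37 with the miR-9 LNA or above 7.45 with the scrambled LNA. The lowest level anywhere on an array was near 6, and the median probe set was at 7.11. The level filter used for testing kept the 27307 probe sets with a mean at or above that median. Probe sets bind their mRNAs with different strength, so these places describe the array and do not rank the mRNAs, and no detection calls were used here.

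Markers of the cell line and of other cell types were set beside these levels. All 7 listed markers of Hodgkin lymphoma lines, among them TNFRSF8 (CD30) at 10.51 and CCL17 at 12.70, passed the filter, with means from 8.58 to 12.81. The B cell markers PAX5, EBF1 and CR2 were at 7.44, 7.63 and 6.85. Of 5 plasma cell markers 3 passed the filter, with XBP1 at 9.89, PRDM1 at 8.59 and SDC1 at 7.24. TNFRSF17 at 6.66 and JCHAIN at 6.42 did not pass it. The 7 markers of T and NK cells lay from 6.87 to 7.31 and the 5 of monocytes and macrophages from 6.57 to 7.21. The ranges of the T, NK and monocyte markers lie within that of the 23 probe sets of the 8 dim genes, and CD3D, CD3E and CD14 were at 7.05, 7.11 and 6.88. The summed level of the T and NK cell markers ran from 48.99 to 49.46 with the miR-9 LNA and from 49.27 to 49.89 with the scrambled LNA. That of the monocyte markers ran from 33.99 to 34.25 with the miR-9 LNA and from 34.15 to 34.53 with the scrambled LNA, and that of the plasma cell markers from 38.55 to 39.04 with the miR-9 LNA and from 38.38 to 38.97 with the scrambled LNA. The part of other cells in the results was not tested. In bulk RNA, fewer cells of a type and less RNA per cell cannot be told apart.

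**Figure D1:**
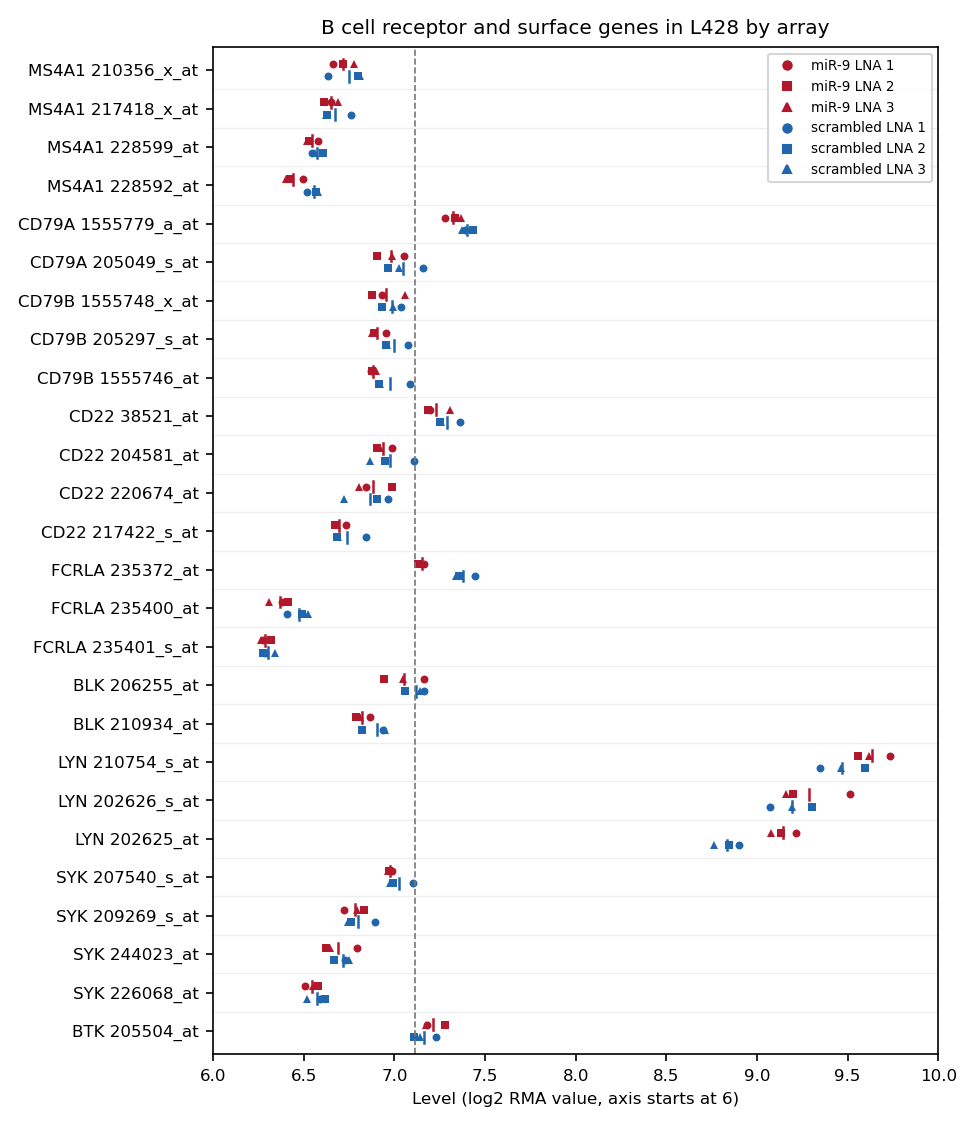
Level of each of the 26 probe sets on each array (log2 RMA value; the axis starts at 6), with miR-9 LNA arrays in red above scrambled LNA arrays in blue, symbols for replicates 1 to 3, short bars for group means (n = 3 each) and a dashed line at the median of all probe sets, 7.11. The 3 LYN probe sets lie at the right, and the other 23 lie below 7.5. The groups separate most widely at FCRLA 235372_at and LYN 202625_at. They separate narrowly at MS4A1 228592_at, CD79A 1555779_a_at and CD79B 1555746_at.

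The comparison of inhibitor with scrambled LNA asks which of these mRNAs differed 9 h after miR-9 was blocked. No probe set of the 9 genes passed the threshold, a limma p of 0.05 after adjustment over all tested probe sets. FCRLA at 235372_at was the member with the lowest value relative to control, 0.85-fold, and LYN at 202625_at was the one with the highest, 1.23-fold. The 3 LYN probe sets lay higher with the miR-9 LNA by 0.10 to 0.30, and 21 of the 23 probe sets of the other 8 genes lay lower, by amounts no larger than 0.11 apart from FCRLA 235372_at.

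Of the 26 probe sets, 0 had a limma adjusted p under 0.05, against 0% of the 54613 probe sets in the fit without a level filter. The lowest adjusted p among the 26 in that fit was 0.320. By unadjusted p (under 0.05) limma had 1 member in the higher direction (3.85% of 26) and 1 in the lower direction (3.85%), against 8.88% and 1.89% of all probe sets. The groups did not overlap for 1 member in the higher direction, against 10.1% of all probe sets, and for 4 in the lower direction (15.4%), against 7.05%. Among all 35612 probe sets with a mean under 7.5, 9.97% had groups that did not overlap in the lower direction. Members of 1 gene share their mRNA and are not independent of each other.

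The median difference of the 26 was -0.03, against -0.002 over all probe sets, and it was -0.020, -0.054 and -0.057 without scrambled replicate 1, 2 or 3. Over 5 equal bins of level, from dim to bright, the median was -0.02, -0.03, -0.03, 0.02 and 0.17. The 3 LYN probe sets lie in the brightest bin, where 90.8% were higher, and CD79A 1555779_a_at in the fourth, where 58.9% were higher. The other 22 lie in the 3 dimmest bins, where 27.7% to 35.4% were higher. Of the 26 members 21 were lower, against 51% of all probe sets. Of the 23 dim members 21 were lower (91.3%), against 67.5% of all probe sets with a mean under 7.5. After quantile normalization 19 of the 23 were lower (82.6%), against 52.4% of such probe sets, and the median of the 26 was -0.01.

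**Figure D2:**
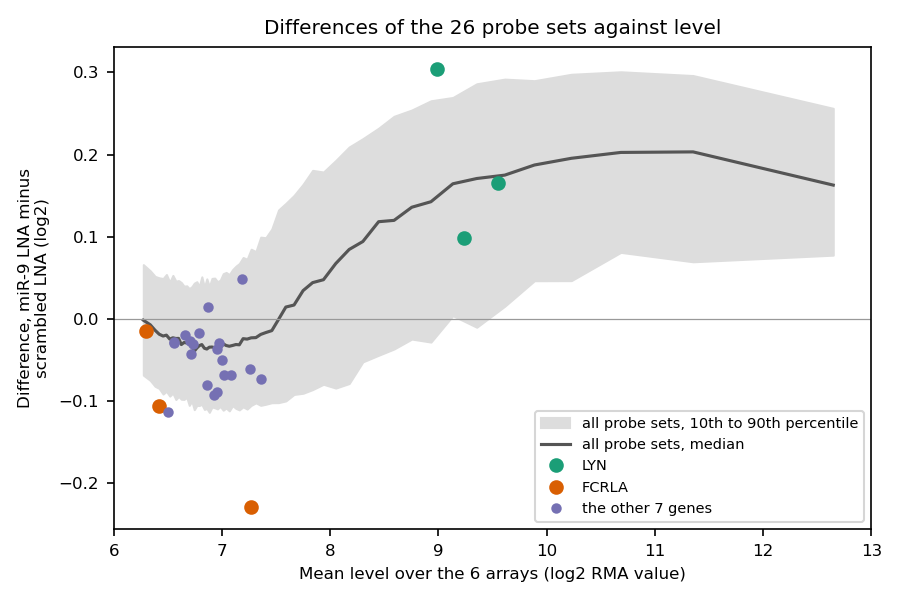
Difference of each of the 26 probe sets (log2, miR-9 LNA minus scrambled LNA) against its mean level over the 6 arrays, with the median (line) and the 10th to 90th percentile (grey) of all probe sets in 60 bins of level. LYN 202625_at at 0.30 and FCRLA 235372_at at -0.23 lie outside the grey band, and most of the other points lie inside it.

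MS4A1, the gene of CD20, had 4 probe sets, of which 0 passed the level filter. At 210356_x_at its level was 6.66, 6.71 and 6.78 on the miR-9 LNA arrays and 6.63, 6.80 and 6.81 on the scrambled LNA arrays. The groups overlapped there, with a difference of -0.03 ± 0.06 (SE; limma adjusted p = 0.886 without the level filter). At 228592_at the values were 6.49, 6.43 and 6.40 on the miR-9 LNA arrays, against 6.52, 6.57 and 6.58 on the scrambled LNA arrays. Every miR-9 LNA array lay below every scrambled array at 228592_at, which stands at percentile 9.78. Its difference was -0.11 ± 0.05 (limma adjusted p = 0.472). The other MS4A1 probe sets, 217418_x_at and 228599_at, differed by -0.02 and -0.03 with overlapping groups.

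CD79A, the alpha chain of the receptor's signalling pair, had 2 probe sets. The brighter, 1555779_a_at, passed the filter and gave 7.28, 7.33 and 7.37 on the miR-9 LNA arrays and 7.39, 7.43 and 7.37 on the scrambled LNA arrays. The groups did not overlap there, though miR-9 LNA replicate 3 and scrambled replicate 3 were nearly level. The difference was -0.07 ± 0.06 with a 95% interval from -0.21 to 0.06 (limma adjusted p = 0.556), and p was 0.1 in an exact permutation test (two-sided), below which a design of 3 against 3 arrays cannot go. At 205049_s_at CD79A differed by -0.07 ± 0.07 with overlapping groups, and scrambled replicate 1 was the highest array, without which the difference was -0.013.

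CD79B, the beta chain, had 3 probe sets at percentiles 38.9 to 41.6, and 0 passed the filter. At 205297_s_at its level was 6.95, 6.89 and 6.87 on the miR-9 LNA arrays and 7.08, 6.95 and 6.96 on the scrambled LNA arrays, a difference of -0.09 ± 0.06 (limma adjusted p = 0.591) that was -0.049 without scrambled replicate 1. At 1555746_at the values were 6.87, 6.88 and 6.90 on the miR-9 LNA arrays, against 7.09, 6.92 and 6.92 on the scrambled LNA arrays. The groups did not overlap at 1555746_at, and scrambled replicate 1 alone made most of the difference of -0.09 ± 0.06 (limma adjusted p = 0.607), which was -0.04 without it. At 1555748_x_at CD79B differed by -0.03 ± 0.06.

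CD22, the inhibitory co-receptor, had 4 probe sets, of which 1 passed the filter. At that probe set, 38521_at, its level was 7.20, 7.19 and 7.30 on the miR-9 LNA arrays and 7.36, 7.25 and 7.26 on the scrambled LNA arrays. The groups overlapped, with a difference of -0.06 ± 0.07 and a 95% interval from -0.21 to 0.09 (limma adjusted p = 0.667). It was -0.025 without scrambled replicate 1 and -0.098 without miR-9 LNA replicate 3. The other 3 CD22 probe sets differed by -0.04, 0.01 and -0.04, each with overlapping groups and below the filter.

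FCRLA, the intracellular Fc receptor-like gene, had 3 probe sets. Probe set 235372_at measured 7.16, 7.13 and 7.16 on the miR-9 LNA arrays and 7.45, 7.36 and 7.34 on the scrambled LNA arrays. The 3 arrays with the inhibitor lay close together and below all 3 scrambled arrays. The group means were 7.15 ± 0.02 and 7.38 ± 0.06 (SD, n = 3 each), a difference of -0.23 ± 0.06 with a 95% interval from -0.37 to -0.09, which did not pass the threshold (limma adjusted p = 0.296). The exact permutation p was 0.1 (two-sided). After quantile normalization the difference was -0.21 (limma unadjusted p = 0.0065).

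Few probe sets of the same brightness lay as low as FCRLA 235372_at. Among the 23901 probe sets with a mean within 0.5 of its own, 9.84% had groups that did not overlap in the lower direction, and 0.138% differed by as much or more in that direction. After quantile normalization the second share was 0.205%. These comparisons were chosen after the values were seen. The other FCRLA probe sets were dimmer. At 235400_at, percentile 5.88, FCRLA was at 6.38, 6.41 and 6.31 on the miR-9 LNA arrays, against 6.41, 6.49 and 6.52 on the scrambled LNA arrays, a difference of -0.11 ± 0.05 (limma adjusted p = 0.528). The groups overlapped there by a narrow margin. At 235401_s_at, percentile 1.31 and near the floor of the array, the difference was -0.01 ± 0.05. The 3 FCRLA differences were thus all below 0 and of unequal size, that at 235401_s_at being smaller than its error. Their correlations over the 6 arrays ran from 0.10 to 0.62.

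LYN, the Src family kinase that both starts the receptor signal and, through CD22, restrains it, had 3 probe sets, and all passed the filter. At 202625_at its level was 9.21, 9.13 and 9.08 on the miR-9 LNA arrays and 8.90, 8.84 and 8.77 on the scrambled LNA arrays. Every array with the inhibitor lay above every scrambled array. The group means were 9.14 ± 0.07 and 8.84 ± 0.07 (SD, n = 3 each), a difference of 0.30 ± 0.07 with a 95% interval from 0.15 to 0.46 (limma adjusted p = 0.296), and the exact permutation p was 0.1 (two-sided). With replicate number as a block the unadjusted limma p of LYN 202625_at was 0.0014 and the adjusted p 0.159.

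The brightest LYN probe set, 210754_s_at, was at 9.73, 9.56 and 9.62 on the miR-9 LNA arrays and at 9.35, 9.60 and 9.47 on the scrambled LNA arrays. The groups overlapped through scrambled replicate 2, and the difference was 0.17 ± 0.08 (limma adjusted p = 0.395), or 0.10 without scrambled replicate 1. At 202626_s_at LYN was at 9.51, 9.20 and 9.16 on the miR-9 LNA arrays and at 9.07, 9.31 and 9.19 on the scrambled LNA arrays. That difference, 0.10 ± 0.11 (limma adjusted p = 0.674), was smaller than its error and rested on miR-9 LNA replicate 1, without which it was -0.01. The SDs at 202626_s_at were 0.19 and 0.12.

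Bright probe sets as a whole were higher with the miR-9 LNA. Among the 4771 with a mean within 0.5 of that of LYN 202625_at, the median difference was 0.15, 30.7% had groups that did not overlap in the higher direction, and 3.86% differed by at least 0.30. After quantile normalization LYN differed by 0.17 at 202625_at (limma unadjusted p = 0.097), by 0.009 at 210754_s_at and by -0.05 at 202626_s_at, where the direction turned. Of the 4771 probe sets, 5.18% then differed by at least as much as 202625_at in the higher direction. The 3 LYN probe sets correlated with each other over the 6 arrays at 0.47 to 0.84, a description of 6 points that share their arrays.

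BLK, the Src family kinase restricted largely to B cells, had 2 probe sets, both below the filter. The first, 206255_at, gave 7.16, 6.94 and 7.05 on the miR-9 LNA arrays and 7.16, 7.06 and 7.14 on the scrambled LNA arrays, a difference of -0.07 ± 0.07 (limma adjusted p = 0.735) that ran from -0.13 without miR-9 LNA replicate 1 to -0.013 without miR-9 LNA replicate 2. At 210934_at BLK differed by -0.08 ± 0.06 (limma adjusted p = 0.628). The groups overlapped at both.

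SYK, the kinase that binds the phosphorylated receptor chains, had 4 probe sets at percentiles 13.3 to 43.4, and 0 passed the filter. At 207540_s_at its level was 6.98, 6.97 and 6.97 on the miR-9 LNA arrays and 7.10, 6.99 and 6.98 on the scrambled LNA arrays, a difference of -0.05 ± 0.05 (limma adjusted p = 0.753). Scrambled replicate 1 stood apart from the other 5 arrays, which lay within a narrow range, and without it the difference was -0.011. The other SYK probe sets differed by -0.02, -0.03 and -0.03, and the groups overlapped at all 4. BTK, the Tec family kinase downstream of SYK, was read by 205504_at alone. Its level was 7.18, 7.28 and 7.17 on the miR-9 LNA arrays and 7.23, 7.11 and 7.14 on the scrambled LNA arrays, a difference of 0.05 ± 0.06 with a 95% interval from -0.10 to 0.20 (limma adjusted p = 0.730). It was 0.015 without miR-9 LNA replicate 2, 0.023 without scrambled replicate 2 and 0.083 without scrambled replicate 1.

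**Figure D3:**
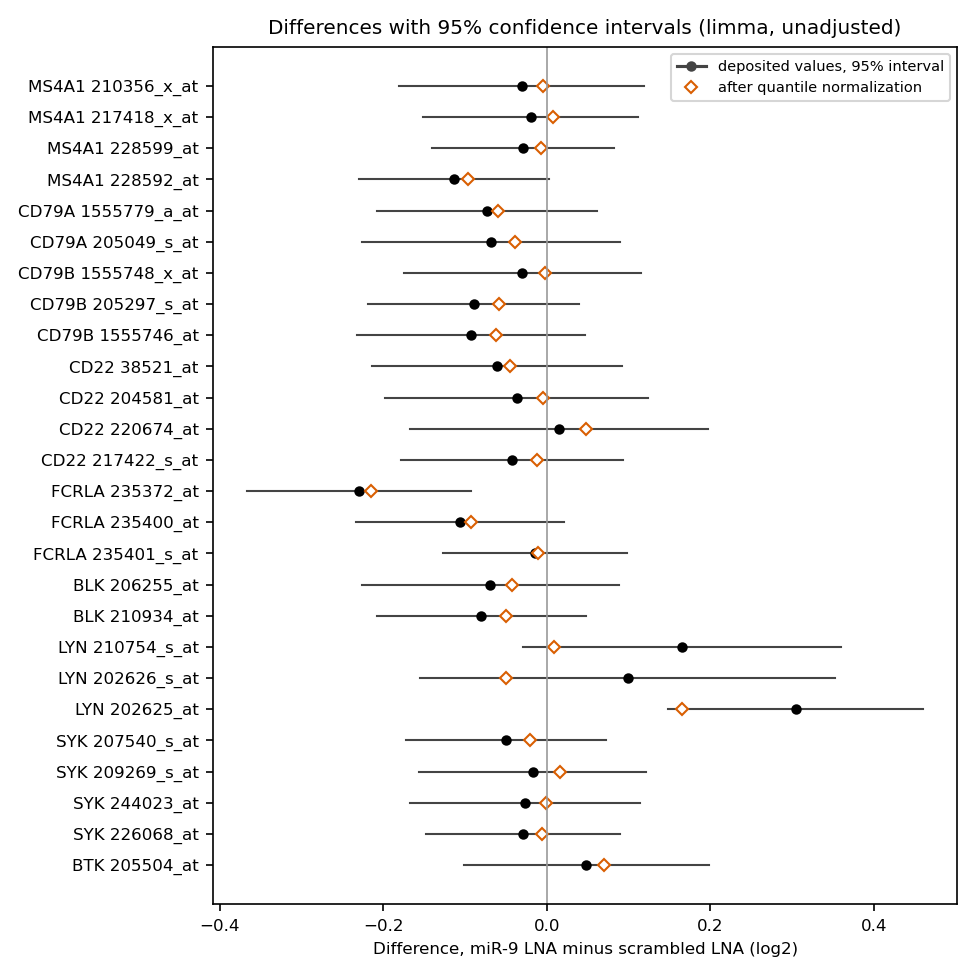
Difference of each probe set (log2, miR-9 LNA minus scrambled LNA) in the deposited values (black, with the unadjusted 95% limma interval) and after quantile normalization (open diamonds). The intervals of FCRLA 235372_at and LYN 202625_at exclude 0 before adjustment, and the LYN diamonds lie to the left of their black points.

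The arrays differed in ways that touch these values. Their medians lay between 7.10 and 7.15. The control probe sets for DapX, ThrX, PheX and LysX were all highest on scrambled replicate 1. DapX was at 10.45 there, against 8.62 to 9.404 elsewhere. The 3' minus 5' value of actin was largest on miR-9 LNA replicate 1, at 0.87 against 0.22 to 0.58 elsewhere. That of GAPDH was largest on scrambled replicate 1, at 0.19, with miR-9 LNA replicate 1 at 0.06. Each LYN probe set was also highest on miR-9 LNA replicate 1. What these control values mean for the members was not tested. The 90th percentile of the levels was 9.53 to 9.57 with the miR-9 LNA, against 9.28 on scrambled replicate 1 and 9.45 and 9.47 on scrambled replicates 2 and 3, and the group means differed by 0.16 (exact permutation p = 0.1, two-sided). Scrambled replicate 1 was the highest of the 6 arrays at 10 of the 23 dim member probe sets, and at 37.6% of all probe sets with a mean under 7.5. Without it 17 of the 26 members were lower, against 21 with all arrays, FCRLA 235372_at differed by -0.20 and LYN 202625_at still had a limma unadjusted p under 0.05. The part of this array in the small differences of the dim genes was not tested beyond leaving it out.

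Other genes of the receptor pathway were described by role from a fixed list of 66, of which 61 had a probe set with 1 gene symbol. At the brightest probe set of each, 40 passed the filter, and 0 of these 40 passed the threshold in either direction (lowest limma adjusted p = 0.299). At an unadjusted p under 0.05, 5 were higher and 0 lower, against 13.8% and 0.626% of the 27307 probe sets that passed the filter. The median of the 40 was 0.06, the same as over all 27307. Of the 40, 29 were higher and 11 lower, where 66.9% of all 27307 were higher. After quantile normalization their median was 0.009.

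Genes of immunoglobulin and surrogate light chains, listed with JCHAIN, were dim as well. All 7 of this list had means under 7.5, from 6.42 to 7.41, and 3 passed the filter. IGHM differed by 0.03, IGHD by -0.05 and IGKC by -0.04. Probe sets for immunoglobulin genes can share sequence with related gene segments, so these values are uncertain. Of 14 co-receptor and surface genes on the array 6 passed the filter, and 2 had means over 9. They were CD81, a tetraspanin, at 10.30 with a difference of 0.12 ± 0.08, and CD24, a surface sialoglycoprotein of early B cells, at 9.34 with 0.21 ± 0.08 (limma adjusted p = 0.328). CD37, another tetraspanin, differed by -0.04 ± 0.07. After quantile normalization CD81 turned to -0.06 and CD24 was at 0.06.

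Of 6 listed Src family, Tec and related kinases on the array, 3 passed the filter and 0 of these passed the threshold. FYN and YES1, Src family members present in many cell types, had means of 9.11 and 9.37 and differed by 0.07 ± 0.10 and 0.16 ± 0.19, and TEC differed by -0.02 ± 0.06. After quantile normalization FYN turned to -0.07 and TEC to 0.0089, and YES1 was at 0.0083. Of 16 genes of adaptors and second messengers, 13 passed the filter and 5 had means over 9. SOS1, an activator of Ras, was at 10.02 ± 0.11 under the inhibitor and 9.74 ± 0.18 under the scrambled LNA, a difference of 0.28 ± 0.10 (limma adjusted p = 0.317). PIK3CD, the delta catalytic subunit of PI3 kinase, differed by 0.22 ± 0.10 and PLCG1 by 0.08 ± 0.06. After quantile normalization SOS1 was at 0.11, PIK3CD at 0.036 and PLCG1 at 0.034. BLNK, the adaptor that joins SYK to BTK, was among the dimmest, at 6.41.

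All 4 measured genes of the arm that leads to NF-kB were bright, with means from 8.36 to 9.44. All 4 were higher, and 0 passed the threshold. MAP3K7, MALT1 and BCL10 lie in the brightest of the 5 bins of level, where 90.8% of probe sets were higher. PRKCB lies in the fourth, where 58.9% were higher. MAP3K7 (TAK1) was at 9.53 ± 0.07 under the inhibitor and 9.35 ± 0.03 under the scrambled LNA, a difference of 0.18 ± 0.06 (limma adjusted p = 0.307). MALT1 differed by 0.28 ± 0.14 and BCL10 by 0.23 ± 0.12. After quantile normalization these 3 differences were 0.02, 0.13 and 0.10.

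Negative regulators held the largest difference of the list. PAG1, a membrane adaptor that brings the inhibitory kinase CSK to Src family kinases such as LYN, was at 10.21 ± 0.11 under the inhibitor and 9.82 ± 0.26 under the scrambled LNA. Its scrambled arrays were at 9.52, 10.00 and 9.95, with replicate 1 the lowest. All 3 inhibitor arrays lay above them, as at 10.1% of all probe sets. That share was 30.7% among probe sets with a mean within 0.5 of LYN 202625_at, which is dimmer than PAG1. The PAG1 difference was 0.39 ± 0.13 (limma adjusted p = 0.299), and it was 0.22 after quantile normalization. PTPN22, a phosphatase that acts on Src and SYK family kinases, differed by 0.18 ± 0.07 and the ubiquitin ligase CBL by 0.19 ± 0.08, against 0.13 and 0.037 after quantile normalization. Of the 11 tested negative regulators 7 were higher and 4 lower, where 66.9% of all tested probe sets were higher. Their median was 0.02 and turned to -0.03 after quantile normalization.

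**Figure D4:**
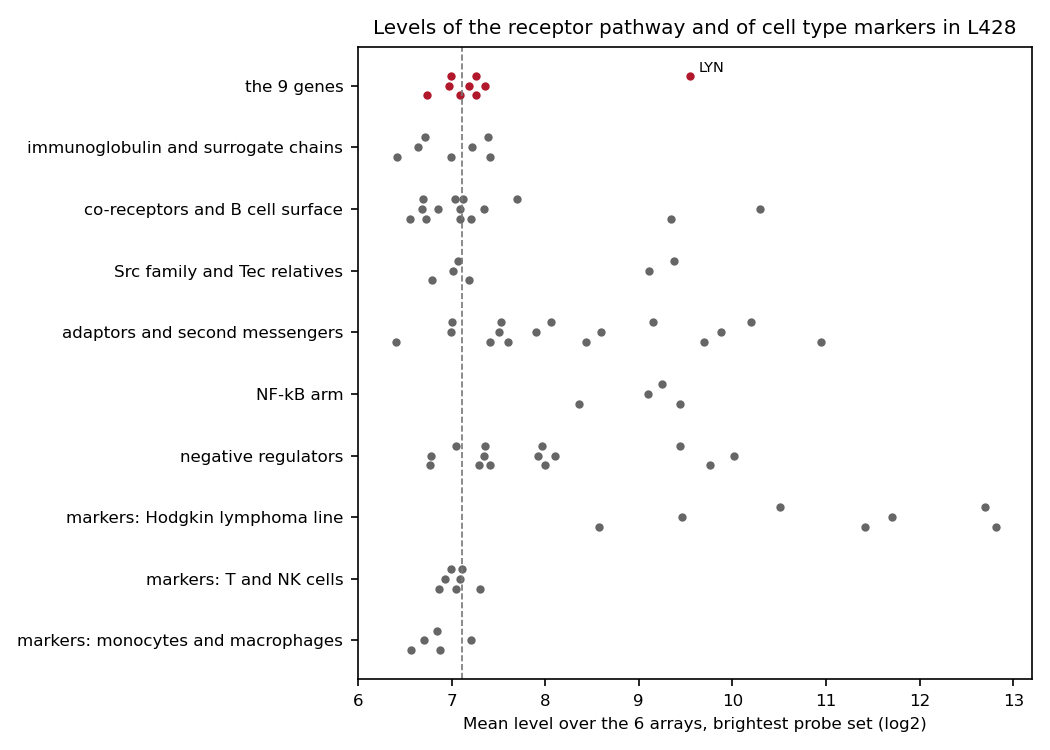
Mean level over the 6 arrays at the brightest probe set of each gene (log2 RMA value; the axis starts at 6), for the 9 genes in red and for the pathway roles and cell type markers in grey; points are spread up and down within a row only to keep them apart. LYN lies apart from the other 8 genes, which fall in or close to the range of the T, NK and myeloid cell markers, while every listed Hodgkin marker lies above 8.5.

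For the brightest probe set of each gene that passed the filter, the most similar gene among 22452 to 22454 named probe sets was taken by Pearson correlation over 6 arrays. FCRLA 235372_at was most like MALAT1, a nuclear long noncoding RNA, at 227510_x_at (r = 0.997), which differed by -0.50. LYN 210754_s_at was most like STOML2 (r = 0.996), CD22 most like NECTIN2 (r = 0.999), CD79A most like MPRIP (r = 0.985) and BTK most like KLF3 (r = 0.986). With 6 points high values are common: 180 probe sets exceeded 0.9 with FCRLA and 927 with LYN.

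Promoters of 5 of the 9 genes were in the RefSeq table (GRCh38.p14), as 8 windows of 250 bases before to 50 after a start. CD79A and FCRLA are shown, the first as a signalling chain of the receptor and the second as the member with the lowest difference. Capitals mark matches on either strand to 4 motifs of factors that act in B cells, the octamer ATGCAAAT, the E-box CAGGTG, the EBF core CCCNNGGG and the Ets motif GGAAGT. No matches overlapped within a window. The CD79A window (chr19:41877029-41877328, plus strand) and the FCRLA window (chr1:161706979-161707278, plus strand) follow.
CD79A promoter: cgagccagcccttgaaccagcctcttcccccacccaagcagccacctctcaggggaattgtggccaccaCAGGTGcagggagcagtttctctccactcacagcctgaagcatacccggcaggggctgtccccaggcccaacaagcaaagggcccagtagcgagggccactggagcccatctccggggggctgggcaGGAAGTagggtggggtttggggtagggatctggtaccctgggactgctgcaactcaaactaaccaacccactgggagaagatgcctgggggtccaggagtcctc
FCRLA promoter: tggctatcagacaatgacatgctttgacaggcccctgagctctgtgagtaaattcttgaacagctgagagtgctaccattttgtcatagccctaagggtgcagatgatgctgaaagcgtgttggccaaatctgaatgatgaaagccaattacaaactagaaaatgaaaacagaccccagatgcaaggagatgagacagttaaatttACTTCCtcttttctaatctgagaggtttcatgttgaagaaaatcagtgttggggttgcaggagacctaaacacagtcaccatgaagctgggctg

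The CD79A window held an E-box 181 bases and an Ets motif 54 bases before the start, and the FCRLA window an Ets motif on the other strand 44 bases before the start. The E-box was in 20.59% and the Ets motif in 22.79% of all 35116 windows of this length, so a match in any 1 window is common. Over the 8 windows of the 5 genes the E-box was in 3, the Ets motif in 4, the EBF core in 1 (of BTK) and the octamer in 0, where the EBF core was in 19.07% and the octamer in 1.77% of all windows. Some of the 8 windows belong to the same gene, and 2 of SYK overlap and share 1 E-box site. A match describes letters and not binding.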

How the data were processed

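The authors measured L428 total RNA on 6 arrays and deposited log2 values. The submitters' processing notes name affy and RMA for them, and versions are not given in the sources used here. Depth does not apply to arrays, and a floor near 6 on each array may understate differences of dim genes. After 62 control probe sets were left out, the 27307 with a mean at or above 7.11 were tested two-sided with lmFit and eBayes of limma 3.58.1 (R 4.3.3), adjusting p-values by Benjamini-Hochberg over all of them at a threshold of 0.05. The 7 member probe sets that passed this filter were read from that fit, and the other 19 from the same fit over all 54613. Gene names came from the platform annotation, where 41091 probe sets had 1 symbol, 1801 several and 11721 none.

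The members and lists were chosen with earlier results of these data known. All member probe sets are named, and for each pathway role the 3 genes of smallest p. MS4A1, CD79B, BLK and SYK probe sets were described though below the filter. BLNK and the markers were named to describe levels.

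Deviations of same-numbered arrays from their group means correlated at r = 0.231, 0.193 and 0.634 across tested probe sets. Unlike-numbered arrays ran from -0.429 to 0.168, the highest being miR-9 LNA replicate 1 with scrambled replicate 2. Replicate 3 thus stood apart, while the values for replicates 1 and 2 do not establish a pairing. The labels do not say what a number shares. Alternatives covered the filter, normalization, variance model, array weights, replicate block, gene rule and each array left out. Scripts were tested on simulated data. Figures used matplotlib 3.10.9 in Python 3.11.15.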

Additional observations from a re-analysis of the deposited data

How the results depend on the processing

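Under all 15 alternatives 0 of the 26 member probe sets, 0 of the tested pathway genes and 0 of all tested probe sets passed the limma threshold, and the lowest adjusted p of a member ranged from 0.121 (array weights) to 0.900 (quantile normalization). FCRLA 235372_at stayed lower in 15 of 15, from -0.25 to -0.20, with an unadjusted limma p under 0.05 in 15, and LYN 202625_at stayed higher in 15 of 15, from 0.17 to 0.34, with such a p in 14. With replicate number as a block limma called 0 members, 0 pathway genes and 0 probe sets in all, so the block changed no call.

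The count at an unadjusted p under 0.05 was 3926 of 27307 (95.6% higher). It was 1243 after quantile normalization (52.3% higher), 6218 with the replicate block, 2584 with the filter at the 75th percentile, 2408 without miR-9 LNA replicate 1 and 2534 without miR-9 LNA replicate 2. Quantile normalization with the block gave 60.7% higher, array weights 78.6% and the fit without scrambled replicate 1 76.2%.

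Some small differences turned sign, and the cause was not tested. MS4A1 217418_x_at was 0.0075 after quantile normalization with or without the replicate block, 0.0069 after median centring and 0.0045 with array weights, and under the same settings SYK 209269_s_at was 0.016, 0.0096 and 0.022. LYN 202626_s_at was -0.049 after quantile normalization with or without the block and -0.010 with array weights, and FCRLA 235401_s_at was 0.012 after median centring. Leaving out each array gave ranges of -0.088 to 0.00042 for MS4A1 210356_x_at, -0.043 to 0.025 for MS4A1 217418_x_at, -0.082 to 0.010 for CD79B 1555748_x_at, -0.091 to 0.030 for CD22 204581_at and -0.056 to 0.065 for CD22 220674_at. They were -0.069 to 0.0086 for CD22 217422_s_at, -0.031 to 0.0064 for FCRLA 235401_s_at, -0.012 to 0.165 for LYN 202626_s_at, -0.045 to 0.029 for SYK 209269_s_at and -0.079 to 0.0050 for SYK 244023_at. With the mean of all probe sets of a gene in place of the brightest, the 9 genes kept their direction, and FCRLA differed by -0.12 and LYN by 0.19. Dim signal limits what the other 8 genes can show. Of their 23 probe sets, 4 passed the level filter, which is the median of all probe sets and not a detection limit. The T cell marker CD5 at 7.31 and the monocyte marker CSF1R at 7.21 passed it too.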
